A study of Mus musculus with 9 samples.

Results

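Conventional CD4-type T cells were taken here as the liver cells that carried RNA of the CD3 complex together with Cd4, Lef1 or Ccr7, and that lacked RNA of the CD8 chains and of innate-like T cells. They made up 437 of 8562 cells, or 5.10% of all cells and 20.6% of the 2123 Cd3-positive cells, those with a Cd3 count that also met the limits on Cd79a and C1q given below. The members were chosen by their own UMI counts of 16 genes. A cell entered the set when it had at least 200 detected genes, at least 1 unique molecular identifier (UMI, the tag that marks 1 captured mRNA molecule) summed over Cd3d, Cd3e and Cd3g, and at least 1 summed over Cd4, Lef1 and Ccr7. It also had to have none for Cd8a, Cd8b1, Cxcr6, Il4, Zbtb16 and Cd79a, and fewer than 5 summed over C1qa, C1qb and C1qc, which mark macrophages. The rule further asked for no Trdc count, but the table used here holds no row for Trdc or for the T cell receptor constant genes Trac and Trbc2, so that condition removed no cell and the receptor type was not checked.

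The cells came from dissociated livers of C57BL/6 mice profiled by droplet single-cell RNA sequencing. The study asked what a pulse of active YAP, the transcriptional co-activator restrained by the Hippo pathway, does to the liver and its resident cells when it is switched on in hepatocytes for a few days. Mice labelled WT had the genotype ROSA26-rtTA-IRES-EGFP; WT and were fed doxycycline for 7 days (2 libraries). The other mice, of genotype ROSA26-rtTA-IRES-EGFP; tetYAP, received the drug for 3 days (YAP3d, 4 libraries) or 7 days (YAP7d, 3 libraries). In the study's methods an Alb-Cre allele opens the rtTA cassette, so the constitutively active transgene is confined by design to hepatocytes, and the T cells described here are not its intended target. All groups thus shared rtTA and doxycycline, and there was no untreated group and no WT group at 3 days. The sources used here give no ages, and they do not say whether libraries of a group came from separate animals, so that p-values measure the spread between libraries, which may be partly technical.

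CD4 T cells recognise peptides on MHC class II molecules through the T cell receptor and the CD4 co-receptor, and they direct other cells through cytokines and through surface molecules such as CD40 ligand. Naive and central memory cells recirculate through lymphoid tissue using CCR7 and depend on the transcription factors LEF1 and TCF1, whereas effector, memory and regulatory cells lose much of this programme. In the liver they lie in the sinusoids and portal tracts beside large numbers of CD8 T cells, natural killer (NK) cells and natural killer T cells.

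Depth was uneven between libraries. Cells per library ran from 293 to 2554, and 323 of the 437 CD4-type cells (73.9%) came from the 3 libraries with over 1400 cells, which were WT replicate 2, YAP3d replicate 4 and YAP7d replicate 3, with 1 in each group. The summed counts of the CD4-type cells ran from 28172 UMIs in YAP3d replicate 1 to 869376 UMIs in YAP3d replicate 4, so that 1 UMI was worth between 35.5 and 1.15 counts per 1000000 UMIs (CPM). In gene profiles the 3 large libraries deviated together: deviations from the group means correlated at 0.435 to 0.599 over genes among the 3. With 2 WT libraries the WT deviations mirror each other. A further split ran across the groups. Gm10709, a pseudogene, stood at 3.65, 11.04, 4.70 and 11.2 CPM over all cells of WT replicates 1 and 2 and YAP3d replicates 3 and 4, and at 347, 428, 363, 392 and 611 CPM in YAP3d replicates 1 and 2 and the 3 YAP7d libraries. What sets these libraries apart was not tested, and the split and the YAP7d condition cannot be told apart in the comparison with WT.

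The gate rested mainly on Lef1 and Ccr7. A Lef1 UMI was found in 337 of the 437 cells, a Ccr7 UMI in 289 and a Cd4 UMI in 157 (35.9%), while 280 cells entered without Cd4. Cd4 lies at chr6:124864693-124888247, Lef1 at chr3:131110297-131224357 and Ccr7 at chr11:99144199-99155077 of the mouse build GRCm38, and the median count where detected was 1 UMI for Cd4 and 2 UMIs for each of the others. Lef1 alone admitted 86 cells, Ccr7 alone 61 and Cd4 alone 27, and 83 cells had all of them. Detection of Cd4 ran from 28.1% of the gated cells in YAP3d replicate 4 to 52.6% in YAP3d replicate 2. At the edge of the rule, 110 cells had exactly 1 admitting UMI and 53 had exactly 1 Cd3 UMI, while 429 Cd3-positive cells without any admitting UMI, 48 with a single Cd8 UMI and 44 with a single UMI of Cxcr6, Il4 or Zbtb16 lay just outside. A further 168 gated cells held 1 to 4 C1q UMIs.

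The gate could be compared with other cells on genes it did not use, and Cd40lg set it apart from CD8 T cells but not from innate-like T cells. Cd40lg (chrX:57212143-57224042) encodes CD40 ligand, the helper signal to B cells and macrophages. It was found in 133 of the 437 CD4-type cells (30.4%) and in 17 of 350 CD8 T cells (4.86%), which had a Cd8a or Cd8b1 UMI and met the other limits but did not have to carry Cd4, Lef1 or Ccr7. After every cell was thinned to 1500 UMIs, which left 434 and 350 cells, the shares were 15.7% and 2.57%, against 0.795% in cells outside the Cd3-positive set. In the 907 Cd3-positive cells with a UMI of Cxcr6, Il4 or Zbtb16, which the rule leaves out, Cd40lg was more frequent than in the gate, at 50.5% and at 25.9% after thinning, with a summed level of 202 CPM. Gated cells with Cd4 and gated cells without it both carried Cd40lg, at 18.6% and 14.0% after thinning. The summed level was 96.8 CPM in CD4-type cells and 13.1 CPM in CD8 T cells, and it was higher in the CD4-type cells in 9 of 9 libraries. These values are a description with no test, since the cells were sorted by their own counts.

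Other genes split the CD4-type from the CD8 T cells the same way, though less far. Izumo1r, which encodes folate receptor 4, stood at 75.3 against 22.1 CPM in the CD8 T cells, and Cd28, the co-stimulatory receptor, at 369 against 253 CPM, each higher in 9 of 9 libraries. In the cells with Cxcr6, Il4 or Zbtb16 they stood at 79.98 and 449 CPM, so that they too did not set the gate apart from that class. Since only the CD4-type gate asked for genes that naive cells carry, a selected class stands against an unselected one in these values. Nkg7 and Ccl5, a cytotoxic granule protein and a chemokine of effector cells, were lower in the CD4-type cells in 8 of 9 libraries, at 422 against 817 CPM and at 1604 against 3439 CPM. Zbtb7b, the factor that commits thymocytes to the helper lineage, was sparse at 16.8 CPM against 5.52 CPM. Ccr7, which admitted cells to the gate, stood at 379 CPM in both classes. Among cells outside the Cd3-positive set, Ccr7 was found in 14.6% after thinning, Lef1 in 2.03% and Cd4 in 1.41%.

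Cells with genes of other types were present in the gate. Clustering of the 437 cells by their own expression gave 9 clusters, of which 3 with few Cd3 counts led with genes of other cell types. Cluster 4 (20 cells) had Gzma, a granzyme, in 100% of cells, Klrb1c in 90%, and the NK receptor Ncr1 in 85.0%, with a median of 2 Cd3 UMIs, and it was NK or innate lymphoid cell (ILC)-like by the marker lists. Cluster 6 (31 cells) had Clec4g and Kdr, of sinusoidal endothelium, in 100% of cells with a median of 1 Cd3 UMI, and 25 of its cells came from YAP3d replicate 4. Cluster 7 (26 cells) had Lyz2, a lysozyme of myeloid cells, in 96.2% and Cd74, the MHC class II invariant chain, in 100% with a median of 1.5 Cd3 UMIs and 9951.5 UMIs per cell. Clusters 6 and 7 received no name. These 77 cells are kept in the gate as the rule has it, and values without them, over 360 cells, are given beside the main results.

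**Figure D1:**
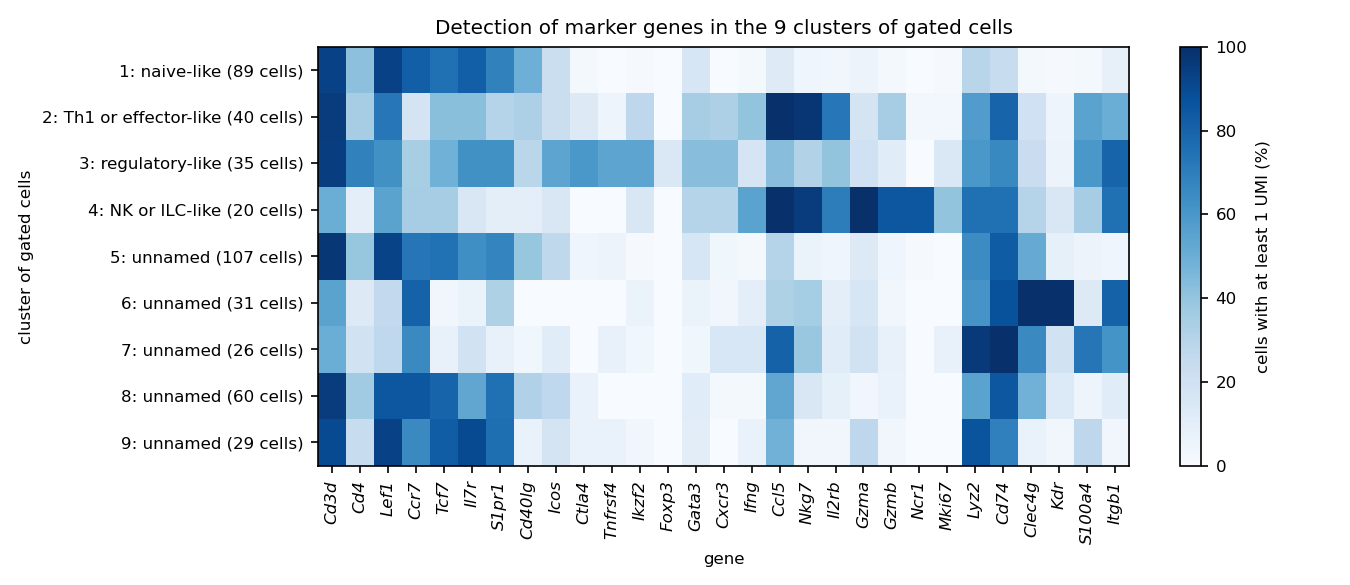
Share of cells with at least 1 UMI (percent, colour) for selected marker genes (columns) in the 9 clusters of CD4-type T cells (rows, with cell numbers). Clusters 4, 6 and 7 carry genes of other cell types, Gzma at 100% in cluster 4 and Clec4g at 100% in cluster 6.

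The remaining cells were described by known T cell states. Cluster 1 (89 cells) was naive-like: it had Lef1 in 93.3%, Ccr7 and Il7r, the interleukin-7 receptor, in 82.0% each, Tcf7, which encodes TCF1, in 75.3% and Cd40lg in 49.4% of cells, against Ccl5 in 12.4% and Nkg7 in 4.5%. Cluster 2 (40 cells) was T helper 1 or effector-like, with Ccl5 in 100%, Nkg7 in 97.5%, Il2rb in 72.5%, Ifng, which encodes interferon-γ, in 40.0% and Cxcr3, a receptor for interferon-induced chemokines, in 32.5% of cells, and Ccr7 in 17.5%. It also had Klrb1c, the receptor NK1.1, in 37.5% and Xcl1 in 52.5%, genes that NK and natural killer T cells express. Cluster 3 (35 cells) was regulatory-like, with Cd4 in 68.6%, the inhibitory receptor Ctla4 in 60.0%, Icos, Tnfrsf4 and Ikzf2 in 54.3% each and Itgb1 in 80%.

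Foxp3, the defining factor of regulatory T cells, was sparse throughout. It was detected in 5 of the 437 cells, and all 5 lay in cluster 3, where they made up 14.3%. Of these cells 2 came from YAP3d replicate 4, 1 from YAP7d replicate 2 and 2 from YAP7d replicate 3. Il2ra, the high-affinity chain of the interleukin-2 receptor, was found in 7 of the 35 cells of cluster 3. None of the 116 WT cells had a Foxp3 UMI, which allows a share of cells with such a UMI of up to 2.59% and sets no limit on cells that express the gene, and these counts say nothing on whether the groups differed in regulatory cells.

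Clusters 5, 8 and 9 held 196 cells, of which 195 came from the 3 large libraries, and they were left unnamed. They shared the naive genes of cluster 1: Lef1 was found in 92.5%, 85.0% and 93.1% of their cells, Tcf7 in 74.8%, 80% and 82.8%, and the thymocyte and naive T cell factor Satb1 in 84.1%, 78.3% and 96.6%. They carried RNA of other cells more often than cluster 1, with Lyz2 in 64.5%, 55.0% and 86.2% against 29.2%, and Cd74 in 83.2%, 85.0% and 69.0% against 23.6%. T cell genes differed as well. Among the leading genes of cluster 1 were Il7r (682 against 227 CPM in the other gated cells), Slamf6 and Cd40lg. Cluster 5 led with Dapl1 (519 against 116 CPM in the other gated cells) and Dusp10. Cluster 9 had 26 of its 29 cells from YAP7d replicate 3 and had Cd40lg in 6.9% and Cd4 in 24.1%, the lowest shares among the clusters that kept many Cd3 counts.

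**Figure D2:**
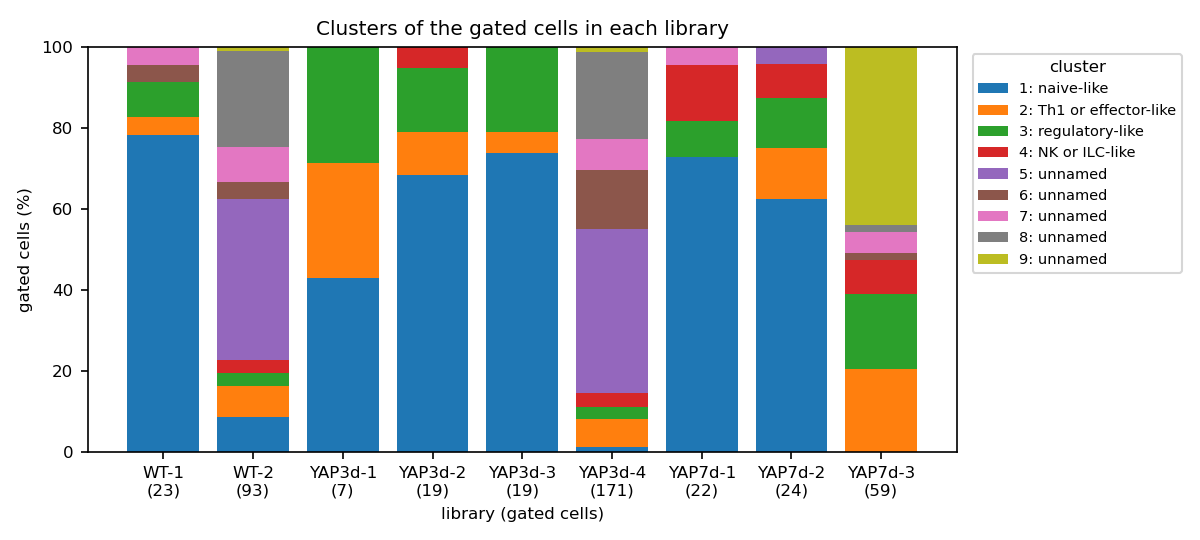
Share of the CD4-type T cells of each library (percent, stacked bars) that fell in each of the 9 clusters, for the WT, YAP3d and YAP7d libraries. Naive-like cluster 1 takes 42.9% to 78.3% of the 6 smaller libraries and 0% to 8.60% of the 3 large ones.

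The share of the naive-like cluster differed with library size. The naive-like cluster held 79 of 114 cells (69.3%) of the 6 smaller libraries, at 78.3% in WT replicate 1, at 42.9%, 68.4% and 73.7% in YAP3d replicates 1 to 3 and at 72.7% and 62.5% in YAP7d replicates 1 and 2. It held 8.60%, 1.17% and 0% in WT replicate 2, YAP3d replicate 4 and YAP7d replicate 3. The effector-like cluster held 31 of its 40 cells, and the regulatory-like one 19 of its 35 cells, from the large libraries, which gave 73.9% of all gated cells. No cluster share was compared between conditions.

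The first question of the design was whether CD4-type T cells became more or less frequent as YAP was switched on, and no difference in frequency was detected. They made up 4.36% and 6.56% of all cells in the WT libraries. The shares were 2.39%, 4.28%, 4.45% and 6.70% in the YAP3d libraries and 3.64%, 5.21% and 3.22% in the YAP7d libraries, and the groups overlapped. The counting error was wide, with exact Clopper-Pearson 95% intervals of 0.966% to 4.86% for YAP3d replicate 1 and 5.76% to 7.73% for YAP3d replicate 4, which cover counting error only. The means were 4.02% ± 1.05 (SD) over the 3 YAP7d libraries, 4.45% ± 1.76 over the 4 YAP3d libraries and 5.46% ± 1.56 over the 2 WT libraries. YAP7d was 1.44 percentage points below WT by the mean (a difference of -1.44, exact permutation test, two-sided, p = 0.3, n = 3 and 2). Whether the groups overlapped depended on which cells were counted. After thinning to 1500 UMIs the YAP7d shares (2.78% to 4.77%) lay below both WT shares (5.09% and 6.14%; exact p = 0.2, n = 3 and 2). With only the gated cells that had a Cd4 UMI, the YAP3d (1.02% to 2.25%) and YAP7d (1.15% to 1.95%) shares lay below the WT shares of 2.27% and 2.54% (exact p = 0.2 for each, n = 4, 3 and 2). Without the 77 cells of clusters 4, 6 and 7 the difference was -1.25 points (exact p = 0.3, n = 3 and 2). A further alternative left gated cells with at least 3 counts of other cells' markers out of the numerator. The shares were then 3.98% and 3.53% in WT, 2.39%, 4.28%, 4.22% and 0.90% in YAP3d and 3.48%, 4.34% and 0.709% in YAP7d.

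Among the Cd3-positive cells the picture was as open. The CD4-type cells made up 19.3% and 18.8% of them in WT, 7.14%, 13.6%, 16.2% and 23.9% in YAP3d and 18.2%, 38.7% and 23.1% in YAP7d. YAP7d replicate 2 stood above all other libraries, on 62 Cd3-positive cells, and the groups overlapped in every pairing. The YAP7d mean of 26.7% ± 10.7 (SD, n = 3) lay 11.5 points above the YAP3d mean of 15.2% ± 6.94 (n = 4; exact permutation test, two-sided, p = 0.143) and 7.64 points above the WT mean of 19.0% ± 0.409 (n = 2; exact p = 0.7). Without YAP7d replicate 2 these differences were 5.44 and 1.62 points. Of CD4-type and CD8 T cells together, CD4-type cells were 71.9% and 53.4% in WT, 47.5% to 67.9% in YAP3d and 45.4% to 66.7% in YAP7d. The group means were 62.7% ± 13.03, 57.9% ± 8.32 and 56.2% ± 10.6 (SD, n = 2, 4 and 3). Without clusters 4, 6 and 7 the YAP7d mean lay 6.64 points above WT and 9.82 points above YAP3d for the share of Cd3-positive cells (exact p = 0.7 and 0.143), and for the share of CD4-type plus CD8 T cells the difference from WT was -7.04 points (exact p = 0.6). No exact p in this family of 12 comparisons was below 0.143, and after Benjamini-Hochberg adjustment the smallest was 0.990. With these group sizes the exact test cannot go below 0.1 for YAP7d against WT, 0.0667 for YAP3d against WT and 0.0286 for YAP7d against YAP3d.

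**Figure D3:**
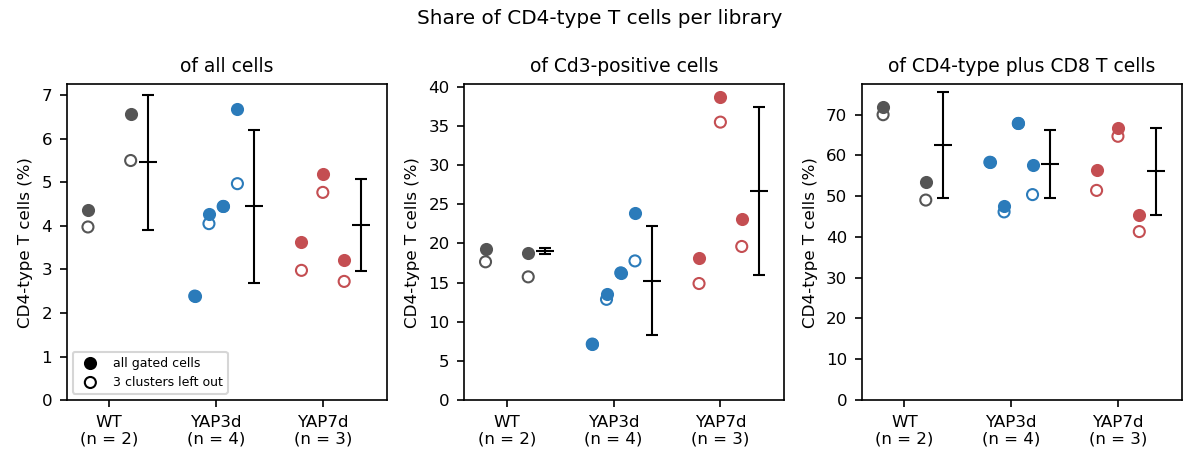
Share of CD4-type T cells (percent) of all cells, of Cd3-positive cells and of CD4-type plus CD8 T cells, for each library of the WT, YAP3d and YAP7d groups, with black bars for the group mean ± SD over libraries. Filled points are all gated cells and open circles leave out clusters 4, 6 and 7. The groups overlap in each panel, and YAP7d replicate 2 is the highest of the Cd3-positive shares at 38.7%.

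The second question was whether the CD4-type cells changed their expression. Counts were summed per library, YAP3d replicate 1 with its 7 cells was left out of these fits, and the 15 genes of the gate were not tested. At an adjusted p below 0.05 (edgeR quasi-likelihood test, Benjamini-Hochberg adjustment), 0 of 1822 genes (0.0%) were called between YAP7d and WT, 0 of 1822 (0.0%) between YAP3d and WT and 0 of 1822 (0.0%) between YAP7d and YAP3d. At an unadjusted p below 0.05 the same fit had 101, 4 and 106 genes. DESeq2 on the same sums called 8 genes between YAP7d and WT (0.439%), 0 between YAP3d and WT and 5 between YAP7d and YAP3d (0.274%). The smallest adjusted p by edgeR was 0.593 for YAP7d against WT, 0.9998 for YAP3d against WT and 0.532 for YAP7d against YAP3d. The 3 comparisons reuse one another's libraries and are not independent. No gene described from here on passed the edgeR test, so the values are given as measured, with unadjusted p from that fit. Over the libraries of these fits, 255 of all 1822 genes were higher in YAP7d than in WT without overlap and 181 were lower. Against YAP3d these counts were 105 and 40, and between YAP3d and WT they were 71 and 97. Some genes below were named for a lack of overlap, so it was fixed by the choice for those genes.

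Rbm3 had the smallest p among the named genes that were higher at 7 days than in WT. It encodes an RNA-binding protein whose RNA is known to rise in the cold, and it lies at chrX:8138975-8145880. It stood at 360.3 and 406 CPM in the WT libraries, at 426, 612, 381 and 518 CPM in the YAP3d libraries and at 792, 1357 and 1551 CPM in the YAP7d libraries. Each YAP7d library was above each WT and YAP3d library. The log2 difference was 1.68 ± 0.35 (SE) against WT (unadjusted p = 0.00069) and 1.25 ± 0.30 against YAP3d (unadjusted p = 0.0018), and DESeq2 called it in both. Over the 360 cells the log2 differences were 1.29 and 1.06, and YAP7d replicate 1 fell to 488 CPM, below the 591 CPM of YAP3d replicate 2. The same order was seen over all liver cells, at 376 and 397 CPM in WT, 471 to 599 CPM in YAP3d and 845, 909 and 1313 CPM in YAP7d.

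Cirbp, the related cold-inducible RNA-binding protein, was looked up after the Rbm3 values were seen. It stood at 108 and 136 CPM in WT, 61.4 to 140.3 CPM in YAP3d and 142, 237 and 407 CPM in YAP7d. The YAP7d libraries lay above the others, the lowest by a narrow margin. The log2 difference was 1.10 ± 0.46 against WT (unadjusted p = 0.0369), and 1.22 over the 360 cells. Over all liver cells Cirbp was at 77.7 and 73.1 CPM in WT, 61.6 to 107 CPM in YAP3d and 50.1, 105 and 251 CPM in YAP7d. The groups overlapped there. Cirbp was also among the leading genes of cluster 9, at 438 against 154 CPM in the other gated cells, and 26 cells of that cluster came from YAP7d replicate 3. With a term for the 3 large libraries in the fit of the 360 cells, chosen after seeing the data, Cirbp was called by edgeR at 1.42 against WT and 1.39 against YAP3d (adjusted p = 0.0288 and 0.0229).

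Gimap5, a GTPase that T cells need to survive, was at 120.1 and 74.0 CPM in WT, 88.6 to 135 CPM in YAP3d and 178, 246 and 317 CPM in YAP7d. The YAP7d libraries were above all others. The log2 difference was 1.46 ± 0.40 against WT and 1.17 ± 0.34 against YAP3d (unadjusted p = 0.00399 and 0.00664), and over the 360 cells it was 1.70 and 1.18. With the term for the large libraries over the 360 cells it was 1.83 against WT and called by edgeR (adjusted p = 0.0288), and 1.24 against YAP3d (adjusted p = 0.121). Rbm3 had an adjusted p of 0.0679 against WT in that edgeR fit. Over all liver cells the order was the opposite, at 129 and 122 CPM in WT and 64.9, 47.6 and 71.8 CPM in YAP7d. Bcl2, which protects lymphocytes from death, was at 228 and 420.1 CPM in WT, 228 to 762 CPM in YAP3d and 819, 1239 and 499 CPM in YAP7d (log2 difference from WT 1.33 ± 0.56, unadjusted p = 0.0383, and 1.14 over the 360 cells).

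**Figure D4:**
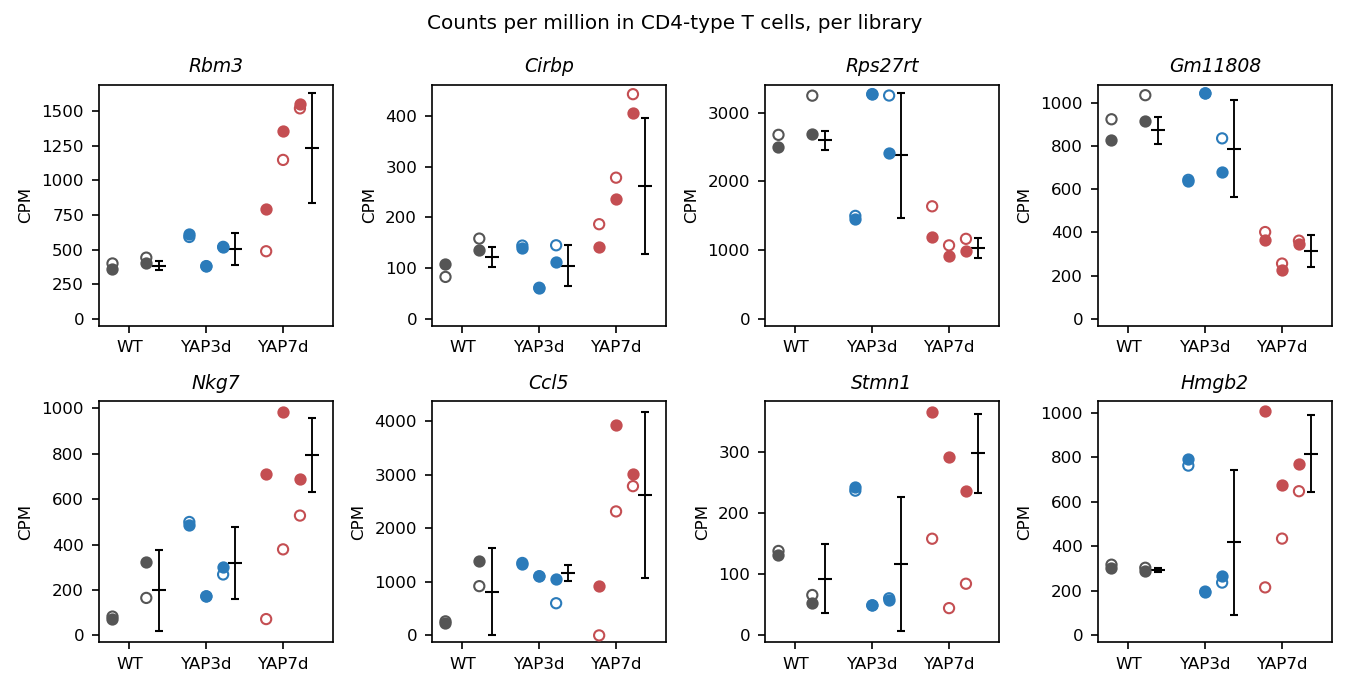
Level (CPM of the summed counts) of 8 genes in the CD4-type T cells of each library by group. Filled points are all gated cells with the group mean ± SD over libraries, open circles are the same libraries over the 360 cells left without clusters 4, 6 and 7, and YAP3d replicate 1 with 7 cells is not drawn. Rbm3 in YAP7d lies at 792 to 1551 CPM, above all WT and YAP3d points, while Stmn1 in YAP7d drops from 236 to 365 CPM to 44.6 to 158 CPM in the open circles.

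Cytotoxic genes had higher values in the gated YAP7d libraries than in WT, and NK and ILC marker genes moved with them. Of the 15 genes of this list, 10 were deep enough to be tested, all with a higher value at 7 days than in WT, and the median log2 difference was 1.48 against 0.03 over all genes tested. Genes high in 1 group can pass the filter on low counts through that group, so these counts and medians describe the tested genes and not the list. At an unadjusted p below 0.05, 6 of the 10 were higher, against 38 of all 1822 genes (2.09%), and none was lower, against 3.46% of all genes. Against YAP3d 6 of the 10 were also higher (background 1.92%), none was lower (background 3.9%) and the median was 1.47. Against WT, YAP3d had a median of -0.11 and no cytotoxic gene at that threshold (background 0.22%). The summed level of the 15 genes was 637 and 3089 CPM in WT, 4863, 2207, 1536 and 2935 CPM in YAP3d and 4621, 7386 and 6227 CPM in YAP7d, and YAP3d replicate 1 with its 7 cells lay within the YAP7d range.

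Nkg7 (chr7:43437138-43438246) stood at 72.1 and 325 CPM in WT, 426, 485, 172 and 301 CPM in YAP3d and 712, 984 and 690.0 CPM in YAP7d. The YAP7d libraries were above all others. The log2 difference from WT was 1.86 ± 0.54 (unadjusted p = 0.0063), and DESeq2 called it. Gzmb, which encodes granzyme B, was at 12.0 and 71.6 CPM in WT, 0, 25.5, 0 and 139 CPM in YAP3d and 1113, 255 and 294 CPM in YAP7d, with a log2 difference from WT of 3.32 ± 1.02 (unadjusted p = 0.00853). Ctsw, a cathepsin of cytotoxic cells, was at 155 to 224 CPM in YAP7d against 48.0 and 103 CPM in WT, and Serpinb9, which shields cells from granzyme B, at 95.4 to 151 CPM against 48.0 and 40.6 CPM. Il2rb, the shared interleukin-2 and interleukin-15 receptor chain, was at 107 to 200.4 CPM against 12.0 and 57.3 CPM.

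Without clusters 4, 6 and 7 the fold of the genes still tested stayed high, while the libraries spread and the groups overlapped for Nkg7, Gzmb, Ctsw, Serpinb9, Il2rb and Ccl5. The median log2 difference was 1.42 over the 3 genes deep enough to test, with Nkg7 at 1.31, Ccl5 at 1.42 and the chemokine Ccl4 at 1.52, against 1.86, 1.63 and 1.09 for these genes in all gated cells. Nkg7 was then at 71.8, 379 and 527 CPM in YAP7d and at 82.8 and 165 CPM in WT, and Gzmb at 0, 0 and 207 CPM in YAP7d and 13.8 and 52.8 CPM in WT. Ctsw was at 43.1, 55.7 and 183 CPM in YAP7d and 55.2 and 85.8 CPM in WT, and Il2rb at 28.7, 145 and 105 CPM against 13.8 and 39.6 CPM. Serpinb9 was at 14.4, 22.3 and 52.7 CPM in YAP7d and 55.2 and 23.1 CPM in WT. Ccl5 was at 0, 2317 and 2789 CPM in YAP7d and at 262 and 920.3 CPM in WT. The summed cytotoxic level became 593 to 1630 CPM in WT, 1295 to 4863 CPM in YAP3d and 316 to 4807 CPM in YAP7d. The 12 NK and ILC marker genes moved with it: they summed to 204 to 2413 CPM in WT, 61.4 to 1937 CPM in YAP3d and 2715 to 2933 CPM in YAP7d over all gated cells, and to 193 to 491 CPM, 61.4 to 1455 CPM and 302 to 1062 CPM over the 360 cells. None of the 12 was at 0 in the gate, and 5 were tested, all with higher values at 7 days than in WT, beside 959 of all 1822 genes. The part of NK-like cells in the cytotoxic values was not tested beyond these 2 sets of sums.

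Cell cycle genes also had higher values in YAP7d than in WT, and the difference was smaller without clusters 4, 6 and 7. Of 30 listed genes 10 were tested, with a median log2 difference of 1.51 between YAP7d and WT, and 5 were higher at an unadjusted p below 0.05, against 2.09% of all genes tested. Stmn1, a microtubule regulator of dividing cells, stood at 132 and 52.5 CPM in WT, 0, 242, 49.1 and 57.5 CPM in YAP3d and 365, 291 and 236 CPM in YAP7d, and YAP3d replicate 2 lay within the YAP7d range. Its log2 difference from WT was 1.85 ± 0.63 (unadjusted p = 0.0146) in all gated cells and -0.04 over the 360 cells. Over all liver cells Stmn1 was at 116 and 108 CPM in WT and 337, 416 and 379 CPM in YAP7d. For Hmgb2, a chromatin protein of cycling cells, the log2 difference went from 1.45 to 0.50. Mki67, the proliferation antigen, was found in 40.0% of NK-like cluster 4, in 14.3% of the regulatory-like cluster and in 1.1% of the naive-like cluster. The median of the 5 cell cycle genes that could still be tested over the 360 cells was 0.18.

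No difference was detected in genes of the naive and helper programmes between YAP7d and WT. Of the 14 naive and central memory genes 12 were tested. None passed an unadjusted p of 0.05 between YAP7d and WT, against 101 of all 1822 genes. In YAP7d 9 had a lower value, beside 863 of all 1822 genes, and the median log2 difference was -0.25 (-0.09 over the 360 cells). Against YAP3d, 1 of the 12, Igfbp4, was lower at an unadjusted p of 0.0097 (background 3.9%). Tcf7 was at 480.5 and 253 CPM in WT and 427, 437 and 303 CPM in YAP7d, and Il7r at 444 and 222 CPM in WT and 463, 701 and 264 CPM in YAP7d, and the groups overlapped for each. Klf2, which keeps T cells quiescent and recirculating, and its target S1pr1, the receptor for exit from tissue, had log2 differences of -0.18 ± 0.28 and -0.50 ± 0.35 from WT. Satb1 differed by -0.37 ± 0.40.

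The 7 tested genes of helper lineage and help had values below WT at 7 days, beside 863 of all 1822 genes, with a median log2 difference of -0.22. None was at an unadjusted p below 0.05, against 3.46% of all genes on the lower side. Cd40lg was at 192 and 93.1 CPM in WT, 177, 306, 197 and 77.1 CPM in YAP3d and 125, 118 and 36.5 CPM in YAP7d. The groups overlapped, and the log2 difference of YAP7d was -0.65 ± 0.68 from WT (unadjusted p = 0.36) and -1.08 ± 0.62 from YAP3d (unadjusted p = 0.109). Cd28 differed from WT by -0.42 ± 0.37 and Icos, a co-stimulator of effector help, by -0.12 ± 0.57. Cd27, a co-stimulatory receptor that is shed or lost on effector differentiation, was at 300.3 and 243 CPM in WT and 125, 173 and 149 CPM in YAP7d without overlap, with YAP3d at 148 to 319 CPM (log2 difference from WT -0.86 ± 0.35, unadjusted p = 0.0324).

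No gene of memory and activation passed the test. All 13 tested had a higher value than WT in YAP7d and 12 of 13 in YAP3d, with medians of 0.54 in each (0.67 for YAP7d over the 360 cells, 12 genes), beside 959 and 1035 of all 1822 genes, and both comparisons use the same 2 WT libraries. A single gene of the 13 passed the unadjusted threshold in each (background 2.09% and 0.22%), Il2rb in YAP7d and Ahnak, a large scaffold protein, in YAP3d (36.03 and 78.8 CPM in WT, 177, 332, 258 and 78.2 CPM in YAP3d, unadjusted p = 0.0259). S100a4 ranged from 48.0 to 289 CPM in WT, from 24.6 to 268 CPM in YAP3d and from 137 to 589 CPM in YAP7d. Cd69, the early activation marker, was at 252 and 134 CPM in WT and at 182 to 303 CPM in YAP7d, with a log2 difference of 0.30 ± 0.59. Cd44 was too low to be tested, at 72.1 and 95.5 CPM in WT and 26.7 to 54.6 CPM in YAP7d.

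Effector lineages were thinly represented in the gate, and its rule bears on this. It asked for Cd4, Lef1 or Ccr7 and left out cells with a UMI of Cxcr6, Il4 or Zbtb16. In the 907 Cd3-positive cells with such a UMI, Ifng stood at 419 CPM and Cxcr3 at 246 CPM. In the gate they stood at 51.9 and 35.1 CPM. Tbx21, Gata3, Pdcd1 and Il2ra were also higher in that class, while Bcl6, Ctla4, Tnfrsf4 and Ikzf2 were lower. The values that follow describe the gated cells only. Tbx21 of T helper 1 cells was at 12.0 and 19.1 CPM in WT and 18.2 to 80.1 CPM in YAP7d, Ifng at 24.02 and 122 CPM and at 45.5 to 78.5 CPM, and Cxcr3 at 0 and 21.5 CPM and at 0 to 146 CPM. Gata3 of T helper 2 cells lay between 0 and 123 CPM in every library, and no gene of the T helper 2 list was deep enough to test, with Il5 and Il13 at 0 in all gated cells. Of T helper 17 genes, Il17f, Il22 and Il23r were at 0. Bcl6 of follicular helper cells reached 26.7 CPM in YAP7d replicate 1 on 3 counts and Pdcd1, the receptor PD-1, 9.11 CPM in YAP7d replicate 2 on 1 count. Among regulatory genes, Ctla4 was at 0 to 123 CPM, Tnfrsf4 at 0 to 140.3 CPM and Il2ra at 0 to 35.5 CPM over the libraries, and Ikzf2 had a log2 difference from WT of 1.03 ± 0.58 at 7 days (unadjusted p = 0.105).

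General programmes were close to the median of all genes at 7 days. Median log2 differences from WT were -0.16 for 19 tested genes of T cell receptor signalling, 0.03 for 12 of homing and adhesion, -0.07 for 10 cytokine receptors, -0.25 for 12 interferon-stimulated genes, 0.06 for 15 of MHC class I presentation, -0.04 for 27 immediate early genes, 0.22 for 8 of glycolysis, 0.10 for 34 of oxidative phosphorylation (-0.13 over the 360 cells) and -0.13 for 14 quiescence factors. Of the 21 Hippo pathway and YAP target genes in the table only Stk4, the upstream kinase MST1, was deep enough to test, with a log2 difference of -0.22 ± 0.51. Yap1 itself was seen in 2 libraries, at 2.39 CPM in WT replicate 2 and 6.90 CPM in YAP3d replicate 4, and at 0 in the YAP7d libraries, in cells that are not the target of the transgene.

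**Figure D5:**
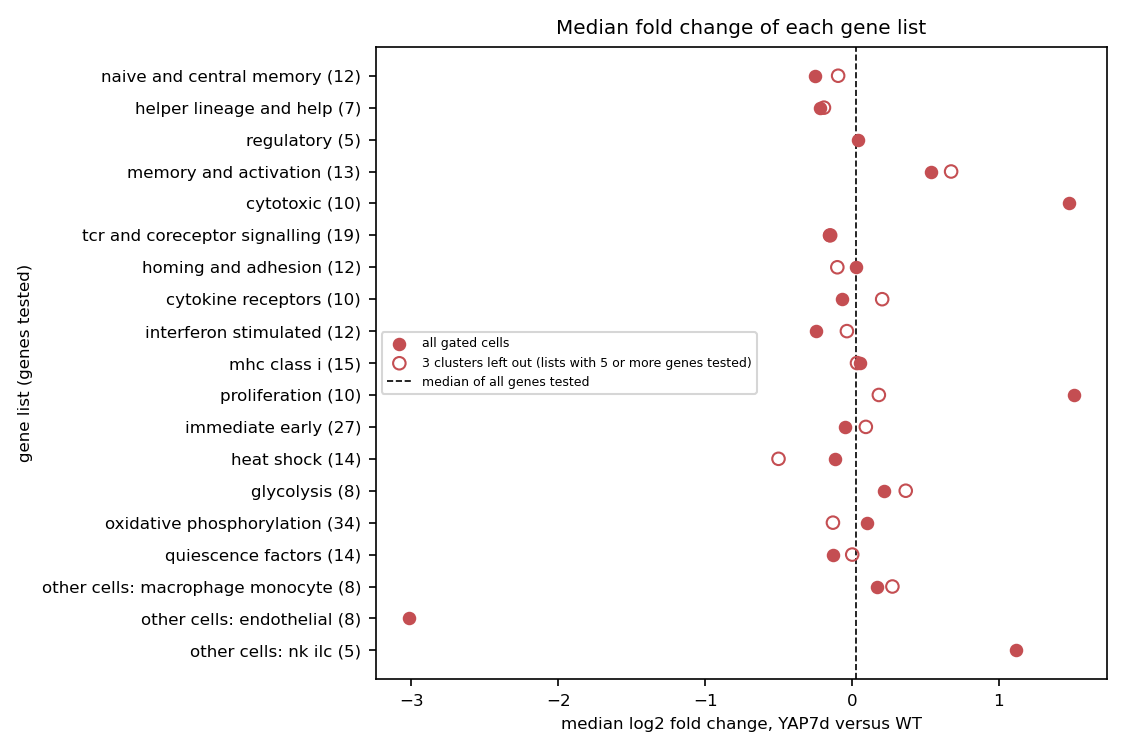
Median log2 difference between YAP7d and WT over the tested genes of each list (number of genes in brackets) in all 437 CD4-type cells (filled points) and in the 360 cells left without clusters 4, 6 and 7 (open circles), with the median of all tested genes as a dashed line. Naive genes lie at -0.25 and helper genes at -0.22, cytotoxic and cell cycle genes lie at 1.48 and 1.51 in all gated cells, and endothelial genes lie at -3.02.

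Ribosomal protein pseudogenes and endothelial genes were among the 63 genes (3.46%) with lower values at 7 days than in WT at an unadjusted p below 0.05. The endothelial list had 6 of its 8 tested genes there. Rps27rt (chr9:114982366-114982739) stood at 2498 and 2695 CPM in WT, 3088, 1454, 3268 and 2419 CPM in YAP3d and 1193, 919.9 and 984 CPM in YAP7d, below all other libraries (log2 difference from WT -1.35 ± 0.33, unadjusted p = 0.00202). Gm11808 (chr4:3973117-3973595) went the same way, at 828.8 and 917 CPM in WT, 638 to 1044 CPM in YAP3d and 365, 228 and 348 CPM in YAP7d (-1.49 ± 0.33, unadjusted p = 0.00108), as did Gm2000, Gm9844 and Rpl27-ps3 with log2 differences of -1.96, -1.79 and -1.41. Reads of such copies and of their parent ribosomal protein genes may have been split in counting, which was not tested. Rps27rt was also lower over all liver cells, at 1166 and 1675 CPM in WT and 477, 311 and 404 CPM in YAP7d, and Gm10709, the pseudogene that splits the libraries, was higher in the gated YAP7d cells with a log2 difference of 5.91. In a fit with a term for that split, chosen after seeing the data, the log2 differences were -0.21 for Rps27rt (unadjusted p = 0.591), -0.88 for Gm11808 (unadjusted p = 0.128) and -1.44 for Gm2000 (unadjusted p = 0.0683) by the same edgeR test, and 1.41 for Rbm3 (unadjusted p = 0.0394). That term rests on YAP3d replicate 2 against YAP3d replicates 3 and 4, since both WT libraries are on 1 side and the YAP7d libraries on the other, so these values do not separate the split from the condition. With the term for the large libraries over the 360 cells, edgeR called Gm2000, Gm11808 and Gm9844 lower against WT (adjusted p = 0.0128, 0.0155 and 0.0288).

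Clec4g, a lectin of sinusoidal endothelium, was at 673 and 523 CPM in WT, 0, 12.8, 12.3 and 1033 CPM in YAP3d and 8.90, 0 and 16.8 CPM in YAP7d. It was high in both WT libraries and in 1 of the YAP3d libraries. Over all liver cells Clec4g was at 2167 and 2175 CPM in WT, 364 to 1643 CPM in YAP3d and 66.3, 78.8 and 44.6 CPM in YAP7d. The 11 endothelial markers summed to 1523 to 1682 CPM in WT, 135 to 3368 CPM in YAP3d and 134 to 250 CPM in YAP7d, and none of them was at 0 in the gate. Over the 360 cells the sums were 152 to 544 CPM, 135 to 604 CPM and 97.7 to 145 CPM. Hspa1a, an inducible heat shock protein that tissue dissociation is known to raise, was at 108 and 852 CPM in WT, 0, 25.5, 577 and 253 CPM in YAP3d and 89.0, 0 and 2.80 CPM in YAP7d, and over all liver cells it was at 412 CPM in YAP7d replicate 1 against 11.5 and 9.14 CPM in the other 2. The 14 tested heat shock genes had a median of -0.11, and the 11 tested over the 360 cells a median of -0.50.

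At 3 days few genes stood out. Ikzf1, which encodes Ikaros, was at 228 and 179 CPM in WT and 142, 102, 135 and 108 CPM in YAP3d, all below WT (log2 difference -0.75 ± 0.30, unadjusted p = 0.0315). Fnbp1 was at 48.0 and 50.1 CPM in WT and 284, 115, 184 and 70.2 CPM in YAP3d (1.24 ± 0.52, unadjusted p = 0.0394). Pa2g4, a growth-linked nucleolar protein, was at 48.0 and 78.8 CPM in WT, 102 to 177 CPM in YAP3d and 126 to 182 CPM in YAP7d, above WT in both groups, with log2 differences of 0.73 ± 0.36 and 1.16 ± 0.35. The other named genes without overlap against WT were Apobec3, P2ry10 and Slc3a2 on the higher side (0.73 to 0.91) and Ube2n, Rassf5, Rtp4 and Pebp1 on the lower side (-1.02 to -0.64), at unadjusted p from 0.0525 to 0.102. Between YAP7d and YAP3d, Eif5a, the translation factor, was at 730.1, 756 and 797 CPM against 395, 332 and 453 CPM (0.88 ± 0.24, unadjusted p = 0.0045) with YAP3d replicate 1 at 887 CPM, and the histone gene Hist1h2ap at 54.6 to 278 CPM against 0 to 12.8 CPM.

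The last question was whether the CD4-type cells responded differently from CD8 T cells of the same livers. A fit of both classes in the 6 libraries with at least 10 cells of each, among them WT replicate 2 alone for WT, which was assumed to vary like the YAP libraries, called 29 of 5170 genes (0.561%) whose difference between YAP7d and WT differed between the classes, and 22 of 5170 (0.426%) for YAP7d against YAP3d (edgeR quasi-likelihood interaction test, adjusted p below 0.05). Genes of other cell types and of the cell cycle were among them. Lyz2 (-2.87), Cd74 (2.56), H2-Ab1 (2.50) and Siglech (7.49), of myeloid, antigen-presenting and plasmacytoid cells, and Top2a (6.39), Mki67 (7.06) and Stmn1 (2.92) of cycling cells had the differences in brackets, as log2 of the CD4-type effect minus the CD8 effect. Hist1h2ap (5.13), Plpp1 (5.11), Plpp3 (4.28), Chil3 (-4.25) and Clec4a3 (-4.97) differed too. They were among the leading genes of clusters 4, 6 and 7 and are on neither kind of list counted next. Of the 29 genes, 7 were on the lists of other cell types and 6 on the cell cycle list, beside 53 and 23 of the 5170 genes tested. Of genes known in T cells, Gzmb had 1.90 (adjusted p = 0.0384) and Bcl2 -1.40 (adjusted p = 0.0184) by the same edgeR test. Leaving out YAP7d replicate 3 took the counts to 5 and 4, and leaving the 77 cells out took them to 8 and 19.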

How the data were processed

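Per the labels, liver cells from doxycycline-fed mice were loaded on Chromium chips. The study's methods give the kit of version 2 for whole-liver libraries such as these, and the submitters' notes name Cell Ranger, Seurat 2 and the build mm10. The authors deposited 1 table of raw counts, UMIs per gene and cell, for 9 libraries (27998 genes, 8562 cells, 63380159 UMIs), whose column names give the group and replicate. Library totals set the precision, and intervals cover counting error only. Reads of ribosomal protein pseudogenes and their parent genes may have been split in counting.

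The members and gene lists were chosen with earlier results of these data known. Gated cells were summed per library with at least 10 cells (8 libraries) and tested with edgeR 4.0.16 in R 4.3.3 (quasi-likelihood, TMM, genes with low counts filtered, all groups in 1 fit), with DESeq2 1.42.0 as an alternative. Shares were compared by exact permutation tests over libraries. Cells were clustered with scanpy 1.11.5 (1000 variable genes, 15 components, 15 neighbours, Leiden resolution 0.8) and named from fixed markers, leaving unnamed any cluster with over 80% of its cells from 1 library. The 360-cell set leaves out clusters led by another class's genes with a median of at most 2 Cd3 UMIs. No doublets were removed. Instead 245 of the 437 cells (56.1%) with at least 3 counts of other cells' markers were left out in an alternative. Genes were named by a rule: those called, and where under 10 were called up to 5 per direction with the smallest unadjusted p, a mean of at least 100 CPM in a group and no overlap, plus fixed T cell genes and members of described lists, some of which are not reported here. Coordinates are from RefSeq GRCm38.p6. The fit was checked on simulated counts.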

Additional observations from a re-analysis of the deposited data

Results flagged for a closer look

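In YAP3d replicate 4, 86.5% of the CD4-type cells held at least 3 counts of marker genes of other cell types, against 0%, 0% and 5.26% in the other 3 YAP3d libraries. This library lay far from the rest of its group, with a gap of 0.939 of the whole range. About 1 in 20 groups would be flagged by chance. The share was 46.2% in WT replicate 2 and 78.0% in YAP7d replicate 3, the other libraries with over 1400 cells, and 4.55% to 16.7% in the remaining WT and YAP7d libraries. With these cells left out, the log2 difference between YAP7d and WT was 1.13 for Rbm3, against 1.68 with them, and 1.44 for Nkg7, against 1.86.

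The difference between conditions itself differed between CD4-type and CD8 T cells for 29 genes in YAP7d against WT and for 22 genes in YAP7d against YAP3d by the edgeR interaction test. For WT this rests on replicate 2 alone, which has no replicate in this fit and was assumed to vary like the YAP libraries. The counts fell to 5 and 4 without YAP7d replicate 3, and to 8 and 19 over the 360 cells. Of the 22 genes, 9 were on the lists of other cell types, among them Cd74 (2.47), Siglech (4.52) and Alb (-3.68, log2 of the CD4-type effect minus the CD8 effect), beside 53 of the 5170 genes tested.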

How the results depend on the processing

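No share passed its test, the smallest exact permutation p over all alternatives was 0.0571, and 7 of the 12 share comparisons turned direction under an alternative; the cause was not tested. Without the 3 libraries with over 1400 cells, a choice made after seeing the data, the difference in the share of all cells was 0.0682 points for YAP7d against WT and 0.718 points for YAP7d against YAP3d, and in the share of CD4-type plus CD8 T cells 3.64 points for YAP7d against YAP3d. Leaving out 1 library at a time gave -2.54 to -0.334 points (YAP7d against WT), -2.11 to 0.0973 (YAP3d against WT, highest without WT replicate 2) and -1.12 to 0.316 (YAP7d against YAP3d, highest without YAP3d replicate 4) for the share of all cells. It gave -15.7 to 2.71 and -14.0 to 4.42 (both highest without WT replicate 1) and -6.97 to 3.67 (highest without YAP7d replicate 3) for the share of CD4-type plus CD8 T cells. For the share of Cd3-positive cells it gave 1.62 to 11.9 (lowest without YAP7d replicate 2), -6.72 to -1.13 and 5.44 to 15.7 in the same order, and with only Cd4 cells the first was 1.39. The share with Foxp3 after thinning to 1500 UMIs differed by 0, 0.390 and -0.390 points for YAP7d against WT, YAP3d against WT and YAP7d against YAP3d. Without thinning the first and last were 2.52 and 2.13, at 1000 UMIs the last 2 were 0, with only Cd4 cells they were 2.08 and -2.08, and without 1 library the last 2 ranged from 0 to 0.585 and from -0.585 to 0.

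The counts of genes called, 0 in each comparison, depended on the fit. For YAP7d against WT they were 8 with DESeq2, 103 without a filter on low counts, 76 with libraries of at least 20 cells, 51 with only cells that had a Cd4 UMI, 17 with only the 2 groups compared and 0 to 10 without 1 library. For YAP3d against WT they were 6 without the filter, 6 with only Cd4 cells and 0 to 5 without 1 library, and for YAP7d against YAP3d 5 with DESeq2, 106 without the filter, 129 with at least 20 cells, 30 with only Cd4 cells and 0 to 2 without 1 library. The counts against WT were highest without YAP3d replicate 4. With only Cd4 cells YAP7d was replicate 3 alone, and with at least 20 cells YAP3d was replicate 4 alone, with endothelial Clec4g, Dnase1l3 and Ptprb among its 129 genes. Without the large libraries WT was replicate 1 alone. In each case, as when a WT library was left out, the lone library was assumed to vary like the other groups. Of alternatives chosen after seeing the data, a term for the 3 large libraries gave 1 for YAP7d against WT and 2 for YAP7d against YAP3d, leaving those libraries out gave 13, 3 (YAP3d against WT) and 5, and the 360 cells with that term gave 15 and 7. RLE size factors, the mitochondrial limit, the removal of cells with counts of other cells' markers, and the 360 cells each gave 0 in all 3 comparisons. The interaction counts went from 29 to 8 over the 360 cells, and to 5 to 30 and 4 to 21 without 1 library, lowest without YAP7d replicate 3.

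Same-numbered libraries correlated at -0.396 to 0.275 over 5 pairs, so the numbers do not pair the libraries. A replicate block gave 57, 46 and 7 genes for YAP7d against WT, YAP3d against WT and YAP7d against YAP3d. Over 2839 refits of 129 single-gene values, 81 refits passed a threshold missed in the reported fit and 298 others moved the value by at least 1 SE. The smallest library in the main fit had 19 gated cells. Some refits used smaller ones, such as YAP3d replicate 2 with 10 cells where only Cd4 cells were kept.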
